A study of Mus musculus with 6 samples.

Results

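miR-148a and miR-152 are microRNAs (miRNAs) that share a seed, the stretch of bases 2 to 8 with which a miRNA pairs to its target mRNAs. They were chosen by name, as the assays called miR-148a and miR-152, and are 2 of 104 miRNAs with a measured signal in osteoclasts of mouse bone marrow. miR-148b, the remaining assay with this seed, was described beside them. The osteoclasts, cells that resorb bone, were sorted with magnetic beads as OSCAR+CTR+ cells from marrow of mice 2 weeks after the anterior cruciate ligament of the knee was cut (ACLT), a surgical model of osteoarthritis, or after a Sham operation. There were 3 ACLT and 3 Sham samples. Both groups had surgery and the same sort. The series text speaks of RNA pooled from 3 mice per group. The sources used here do not say if each sample was 1 animal or a repeated run on pooled RNA, and they give no strain, age or sex. The p-values thus cover no more than the spread among the 6 samples, which may be technical. OSCAR and CTR are proteins whose mRNAs the array does not measure, so the sort could not be checked against its own markers.

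A miRNA guides a silencing complex to mRNAs that match its seed and lowers their stability and translation, so miRNAs with 1 seed have overlapping sets of targets. The family of miR-148a, miR-148b and miR-152 is known in human cells for repressing DNMT1, the maintenance DNA methyltransferase. miR-148a has been described in human monocytes as favouring osteoclast formation. miR-152 has been described as a repressor of DNMT1 in human liver and bile duct cells.

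The mature sequences show how alike the assays' targets are. They are given 5′ to 3′ as the deposited table lists them, with the seed in capitals, and each equals the RefSeq entry on GRCm38.p6.
miR-148a: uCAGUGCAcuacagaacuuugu
miR-152: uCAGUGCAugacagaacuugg
miR-148b: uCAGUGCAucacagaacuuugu
The seed CAGUGCA belonged to these 3 assays alone among the assays of the ΔCt table as used here, and to 3 mature mouse miRNAs in the RefSeq table. Counted from 1 at the 5′ end, miR-152 differs from miR-148a by C9U, U10G and U20G and is 1 base shorter, so 18 of 21 compared bases are the same. miR-148b differs from miR-148a by C9U and U10C. All differences thus lie outside the seed. In the reverse transcription kit used, miRNAs are tailed and copied with an adaptor, and an assay is made specific by a primer with the sequence of the miRNA itself. Whether the assays of the family share signal was not tested.

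The 3 miRNAs come from separate genes. Mir148a lies on the minus strand at chr6:51269812-51269910 (GRCm38.p6), within the bounds of the predicted gene Gm38821. Mir152 lies on the plus strand at chr11:96850393-96850465, within Copz2, and Mir148b on the plus strand at chr15:103285125-103285221, within Copz1. Copz1 and Copz2 are paralogues that encode zeta subunits of the COPI vesicle coat. The strand of the enclosing genes was not used here, so whether a miRNA shares its transcript was not tested. The hairpins from which the members are cut carry the mature miRNA in the 3′ arm, shown here in capitals.
Mir148a hairpin: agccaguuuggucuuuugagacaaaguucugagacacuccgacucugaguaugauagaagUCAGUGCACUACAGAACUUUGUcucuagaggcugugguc
Mir152 hairpin: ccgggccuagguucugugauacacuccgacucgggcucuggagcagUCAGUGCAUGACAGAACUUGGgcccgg
The opposite strand of the first hairpin, miR-148a* (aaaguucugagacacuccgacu), also had an assay, which gave a signal in 0 of 6 samples, whereas miR-148a gave one in all 6.

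miRNAs were measured as the threshold cycle (Ct) of a real-time PCR, which falls as RNA increases. Here a level is minus ΔCt, the Ct of the sample's U6 well on that plate minus the Ct of the miRNA, so that 1 unit stands for a doubling if amplification is fully efficient. Of the 104 miRNAs, 100 were tested. They had a deposited ΔCt and reached a Ct below 35 in each sample of ACLT, of Sham or of both. The assays of the family lay on the same plate, so differences between their levels do not depend on the reference. A qPCR array has no read depth, and the number of samples limits the precision.

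The samples were not all separate measurements: in most wells the raw Ct of sample 3 was a fixed multiple of that of sample 2. In ACLT the factor was 0.990 or its reciprocal, met within 0.002 cycles by 77 of 110 wells, and in Sham it was 0.978 or its reciprocal, met by 82 of 110 wells. The remaining 13 pairs of samples shared a factor in 2 to 4 wells. miR-152 was on the factor in both groups. Its Ct in ACLT went from 29.981 in sample 2 to 29.681 in sample 3, a ratio of 0.990, and in Sham from 28.875 to 28.252, a ratio of 0.978; both lay within 0.0003 cycles of the multiple. miR-148b was on the same factors, in the same direction, in both groups (29.931 to 29.632, and 30.522 to 29.864). miR-148a was on neither. Its Ct rose from 22.189 to 23.701 in ACLT, a ratio of 1.07, and went from 26.455 to 26.367 in Sham, a ratio of 0.997, which is 1.29 and 0.483 cycles away from the nearest multiple. The members therefore differ in what 3 samples stand for: for miR-152 and miR-148b sample 3 adds no value that is independent of sample 2, while for miR-148a no such tie was found.

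**Figure D1:**
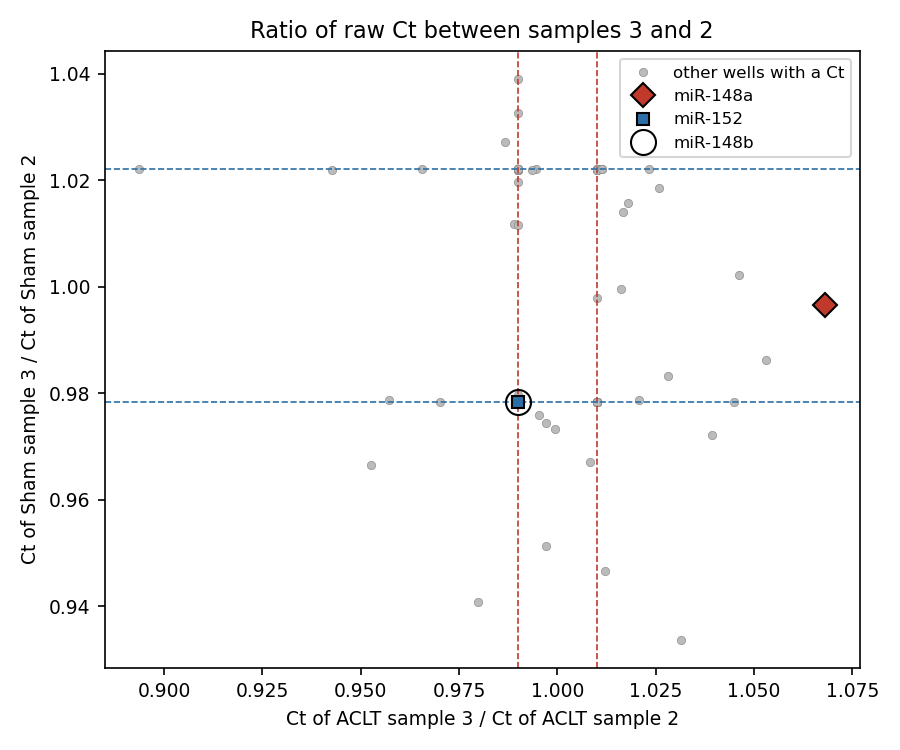
Ratio of the raw Ct of sample 3 to that of sample 2 in ACLT (x axis) and in Sham (y axis), 1 point per well with a Ct; dashed lines mark the factor of each group and its reciprocal. miR-152 and miR-148b lie together where the lines of 0.990 and 0.978 cross, and miR-148a lies off all lines, at 1.07 and 0.997.

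miR-148a was 9.24-fold higher in ACLT. Its level relative to U6 was 4.09, 3.94 and 3.16 in the 3 ACLT samples and 1.04, 0.45 and 0.086 in the 3 Sham samples. Every ACLT sample was thus above every Sham sample, and within each group sample 3 was the lowest. On a linear scale miR-148a stood at 17.1, 15.4 and 8.96 times U6 in ACLT and at 2.06, 1.36 and 1.06 times U6 in Sham. The mean levels were 3.73 ± 0.50 and 0.53 ± 0.48 (SD, n = 3 each), and the log2 change of 3.21 ± 0.60 (SE; 95% interval 2.02 to 4.39) passed in limma (adjusted p = 5.81e-06). This SE, interval and p-value rest on a spread pooled over all tested miRNAs, tied wells included, so they are not free of the tie. From the values of miR-148a alone the SE was 0.40. The exact permutation test of this miRNA alone gave p = 0.1 (two-sided), the smallest that 3 against 3 samples can give. The ratio in the authors' deposited table was 9.24.

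Of the 100 tested miRNAs, 13.0% passed as higher in ACLT, 7.00% passed as lower, and 18.0% had ACLT values all above the Sham values. Within this background the change of miR-148a came after those of miR-21 and miR-214, which both promote osteoclast formation in mice or mouse cells, and before those of miR-30d and miR-30a in order of size. The raw signal moved alike. The Ct of miR-148a was 21.842, 22.189 and 23.701 in ACLT and 24.302, 26.455 and 26.367 in Sham, a difference of -3.13 cycles. In order of Ct among the 104 miRNAs it was number 3, 3 and 15 in the ACLT samples and number 16, 25 and 34 in the Sham samples. ACLT sample 3 and Sham sample 1 were only 0.60 cycles apart in raw Ct and lay at neighbouring places in that order. U6 differed by 1.52 cycles between these samples, and relative to U6 their levels were 2.12 apart.

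**Figure D2:**
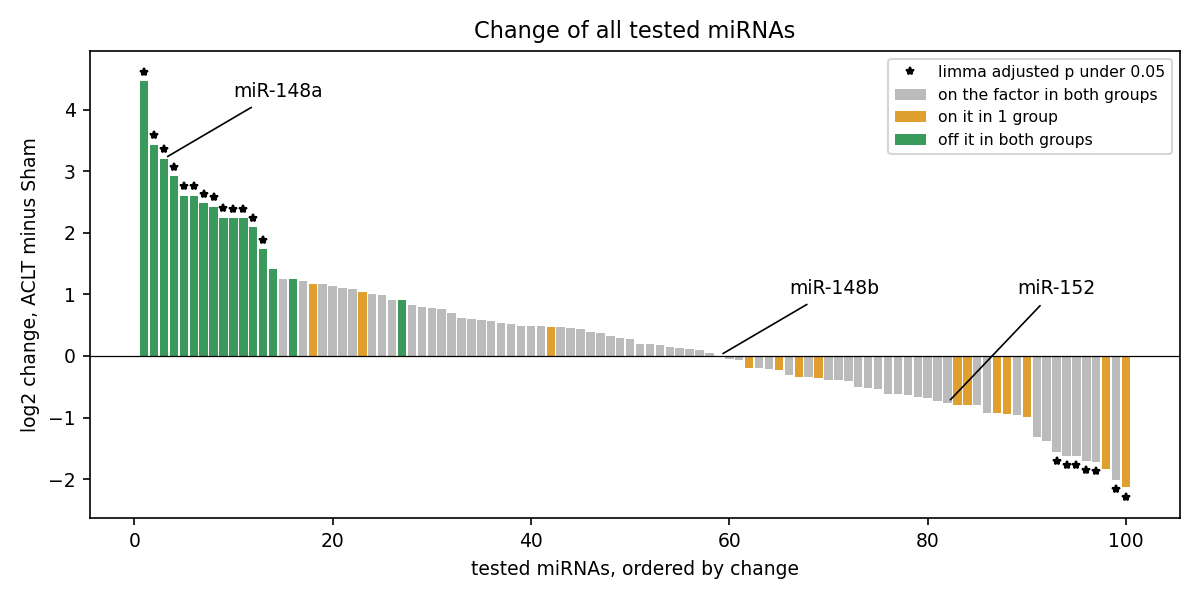
Log2 change (ACLT minus Sham, relative to U6) of the 100 tested miRNAs in order of size, coloured by whether samples 2 and 3 were tied by the fixed factor; stars mark a limma adjusted p under 0.05. miR-148a is labelled at 3.21, and miR-148b (0.005) and miR-152 (-0.76) lie among the grey bars of wells on the factor in both groups.

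The rise of miR-148a moved together with where a miRNA stood on the factor and with one of the references. Of the 16 tested miRNAs off the factor in both groups, miR-148a among them, 13 passed as higher and 0 as lower, with a median change of 2.34. Of the 70 on it in both groups 0 passed as higher and 6 as lower, with a median of 0.14. The rest, among them miR-99b*, which passed as lower, were on it in 1 group. The sets also differed in signal: the mean Ct of a miRNA ran from 22.6 to 25.8 off the factor and from 23.3 to 32.1 on it. The Ct of reference 3, an unnamed RNA, was 27.464, 28.500 and 29.013 in ACLT and 30.437, 31.012 and 31.500 in Sham on the family's plate, a difference of -2.66 cycles without overlap (exact permutation p = 0.1). Relative to reference 3 miR-148a stood at 0.47 (limma adjusted p = 0.447), and relative to reference 2, whose Ct spread most, at 2.56 (limma adjusted p = 0.986), so the call ended with either. The part of the tie, of the signal strength and of the references in the rise was not tested. With samples 2 and 3 of each group averaged into 1 the change was 3.17 (limma adjusted p = 0.000395), and relative to the median miRNA it was 2.76. In RNA of sorted cells, more cells that carry a miRNA and more of it per cell cannot be told apart.

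miR-152 did not pass in either direction. Its level was -3.92, -3.85 and -2.82 in the ACLT samples and -4.53, -1.97 and -1.80 in the Sham samples, so that the groups overlapped. Sham sample 1 was the lowest of all 6, while Sham samples 2 and 3 were the highest. The means were -3.53 ± 0.62 and -2.77 ± 1.53 (SD, n = 3 each), which is a log2 change of -0.76 ± 0.59 (limma SE) with a 95% interval of -1.93 to 0.40 and an adjusted p = 0.417. limma pooled the spread over all miRNAs, and the SE from the values of miR-152 alone was 0.95; its exact permutation p was 0.4. The ratio in the authors' deposited table was 0.590. The interval includes no change and, at its lower end, an ACLT level of 0.263 times that of Sham.

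The limma call of miR-152 changed when 1 Sham sample was left out. Without Sham sample 1 its change was -1.64 (limma adjusted p = 0.00781), and without Sham sample 2 or 3 it was -0.36 and -0.28. Without ACLT sample 3 it was -1.12 and did not pass. Without Sham sample 1 the Sham group holds only the tied samples 2 and 3. The p-value of that fit counts them as separate, as it does the tied ACLT samples, so it overstates what was measured. The Ct of miR-152 was 29.875 in Sham sample 1 and 28.875 in Sham sample 2, a step of 1.000 cycle. Between these samples it was the single step in 110 wells that was a whole number of cycles to 0.001 cycles, the last decimal of the table. Between ACLT samples 1 and 2 there were 0 such steps in 110 wells. Whether a single such step stands for more than coincidence was not tested. As Sham sample 3 is a multiple of Sham sample 2, the Sham group holds 2 separate Ct values of this miRNA, and they lie 2.56 apart in level. Of this, 1.000 cycle came from the Ct of miR-152 itself and 1.556 cycles from U6. With samples 2 and 3 of each group averaged into 1 the change was -0.42 (limma adjusted p = 0.805). The call also depended on the scaling. The change was -1.21 relative to the median miRNA (limma adjusted p = 0.00906), -1.89 relative to all 3 references averaged and -3.50 relative to reference 3 alone, each past the threshold.

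In ACLT the raw Ct of miR-152 hardly varied, with 29.853, 29.981 and 29.681 cycles, yet its level rose by 1.03 from sample 2 to sample 3. Of this, 0.300 cycles came from the Ct of miR-152 itself, which is the factor, and 0.734 from U6. miR-148b showed the same step of 1.03, with 0.299 cycles of its own. Over the 3 ACLT samples the SD of the raw Ct was 0.15 cycles for either miRNA and 0.49 cycles for U6, beside level SDs of 0.62 and 0.59.

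miR-148b, which differs from miR-148a at 2 bases, did not pass either relative to U6. Its level was -3.78, -3.80 and -2.77 in ACLT and -3.33, -3.62 and -3.41 in Sham. All Sham values lay within the ACLT range. The log2 change was 0.005 ± 0.59 (limma SE; 95% interval -1.16 to 1.17; adjusted p = 0.993), and the ratio in the authors' deposited table was 1.00. The sign of a change this small has no meaning, and it turned under 9 of 20 alternatives. Relative to reference 3 the change was -2.73 and passed as lower (limma adjusted p = 0.000194). The fold at the ends of the interval relative to U6 was 0.447 and 2.25, so a change of the size of miR-148a lay outside it. That interval counts samples 2 and 3 as separate, though they are tied for miR-148b, and so may be too narrow. While the Ct of miR-148a fell by 3.13 cycles from Sham to ACLT, that of miR-148b differed by 0.072 cycles.

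The comparison of the members with each other asks whether the seed relatives changed alike, and it is free of the reference. The level of miR-148a minus that of miR-152 was 8.01, 7.79 and 5.98 in ACLT and 5.57, 2.42 and 1.89 in Sham. The ACLT values all lay above the Sham values, but the gap between the lowest ACLT and the highest Sham value was only 0.41. As a linear ratio, at equal and full amplification efficiency of both assays, miR-148a was 258, 222 and 63.1 times miR-152 in ACLT and 47.6, 5.35 and 3.69 times in Sham. The mean differences were 7.26 ± 1.11 and 3.29 ± 1.99 (SD, n = 3 each), so the balance moved by 3.97 ± 1.32 (SE) towards miR-148a (exact permutation p = 0.1, two-sided, the smallest possible; 0.15 after Benjamini-Hochberg adjustment over the 3 pairs of the family). The shift is larger than that of miR-148a alone because the mean of miR-152 was lower in ACLT, a difference that did not pass.

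The level of miR-148a minus that of miR-148b was 7.88, 7.74 and 5.93 in ACLT and 4.38, 4.07 and 3.50 in Sham, with a gap of 1.56 between the groups. The shift was 3.20 ± 0.68 (SE; exact permutation p = 0.1, adjusted 0.15). After quantile normalization it was 1.81 (exact permutation p = 0.3) and the groups overlapped. miR-152 minus miR-148b was -0.14, -0.050 and -0.049 in ACLT and -1.20, 1.65 and 1.61 in Sham. In ACLT these relatives gave nearly the same Ct in every sample, whereas in Sham they stood apart by more than 1 cycle in each sample and in opposite directions in sample 1 and sample 2. The group means differed by -0.77 ± 0.94 (SE; exact permutation p = 0.4, adjusted 0.4). For this pair sample 3 repeats sample 2 by arithmetic, since both miRNAs were on the same factor.

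**Figure D3:**
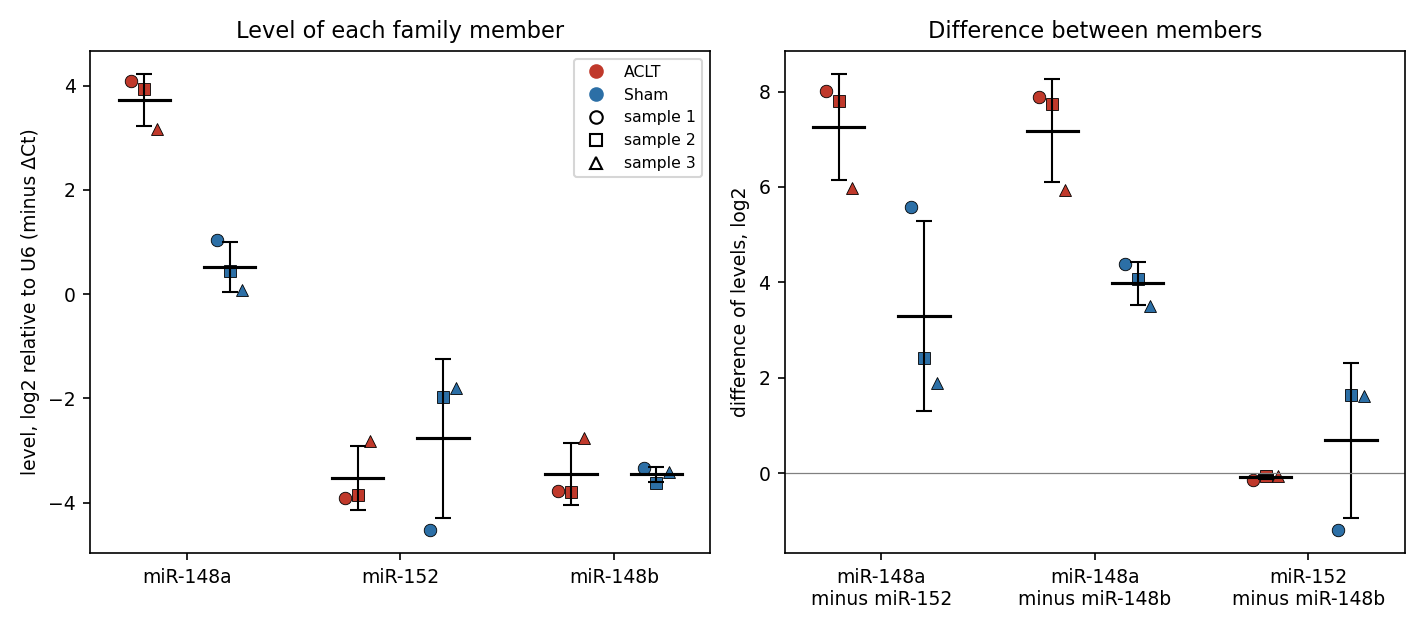
Left, level of each family member relative to U6 on the log2 scale; right, difference of levels within each pair of members; points are samples, bars the mean and the SD of 3 samples. miR-148a separates the groups (means 3.73 and 0.53), miR-152 and miR-148b do not, and both differences that contain miR-148a are higher in all 3 ACLT samples.

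The profile of miR-148a over the 6 samples was most like that of miR-21 (Pearson r of levels 0.97), followed by miR-214 (0.95), miR-200c (0.93), miR-29a (0.91) and miR-199a-3p (0.91). These are descriptions over 6 samples that share U6 and the same 2 groups; on raw Ct the r values were 0.93 to 0.96. All 5 passed as higher in ACLT, beside 13.0% of the 100 tested. All 5 were off the factor in both groups, beside 16 of the 100 tested. They were picked by likeness to a profile that separates the groups, so these counts are no separate evidence. miR-152 and miR-148b were not among the likenesses of miR-148a, with r of -0.56 and -0.14 on levels and of -0.87 and 0.28 on raw Ct.

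The profile of miR-152 was most like that of miR-151-3p, an unrelated miRNA with 6 of 21 bases in common, at r = 0.9995 over the 6 samples. The raw Ct values themselves nearly coincided: miR-151-3p had 29.845, 29.971 and 29.671 cycles in ACLT and 29.760, 28.857 and 28.234 in Sham, against 29.853, 29.981 and 29.681 and 29.875, 28.875 and 28.252 for miR-152. In 5 samples they differed by at most 0.018 cycles, and in Sham sample 1 by 0.115. The next 4 by likeness were miR-25, miR-26b, miR-128 and miR-143, with r of 0.92 to 0.96 on levels and 0.54 to 0.94 on raw Ct, where miR-26b was the lowest. Of the 5 nearest 0 passed, beside 13.0% higher and 7.00% lower over all 100 tested. A count of 0 among 5 is near what that background gives, and the 5 were picked by likeness to a miRNA that did not pass. The closest well to miR-148b was that of miR-181d, within 0.387 cycles in all samples. Such near-copies were frequent among tied wells. With a limit of 0.2 cycles in all 6 samples, chosen after the values were seen, 44 of the 104 miRNAs had another with nearly its Ct, among them 42 of the 71 on the factor in both groups and 0 of the 16 off it. The closest well to miR-148a, that of miR-200c, was up to 1.10 cycles away. Wells tied to sample 2 by 1 factor in the same direction have alike values in sample 3 whenever they have them in sample 2. Near-copies among such wells are thus fewer than 6 separate likenesses. Where the likeness comes from was not tested.

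**Figure D4:**
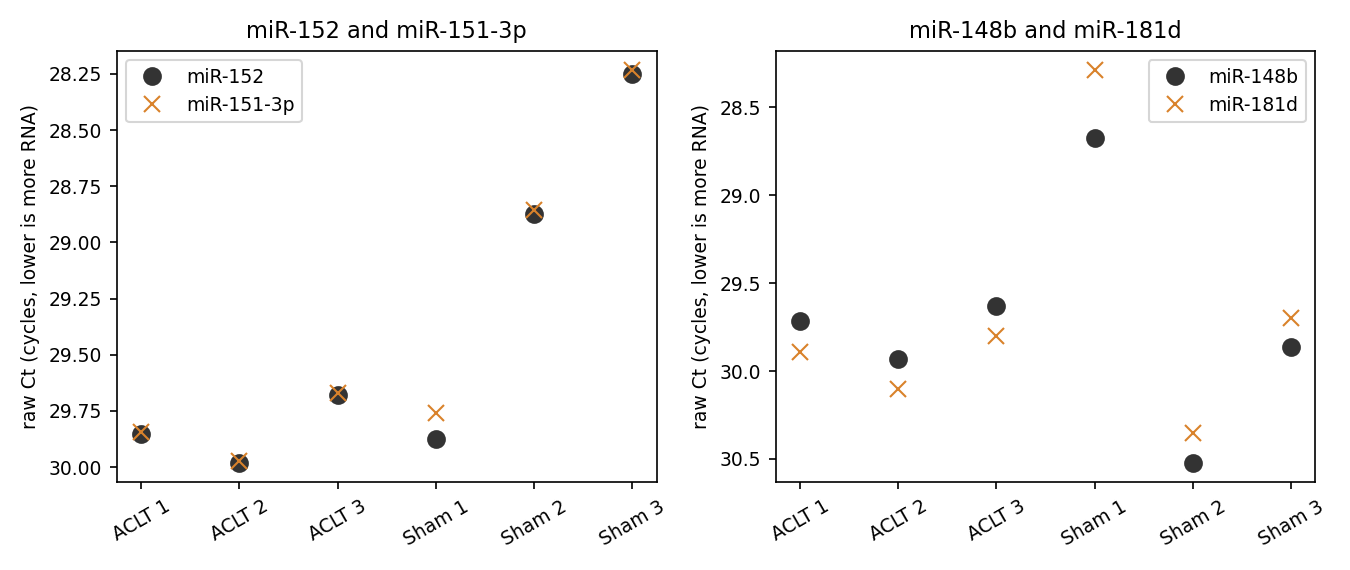
Raw Ct (cycles, axis inverted so that more RNA is up) of miR-152 with miR-151-3p, left, and of miR-148b with miR-181d, right, in each of the 6 samples. The points of the left pair coincide within 0.018 cycles in 5 samples and lie 0.115 cycles apart in Sham sample 1.

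Set among miRNAs with related roles, the family was split. A list of miRNAs described as repressing DNA methyltransferases was limited to this family and the miR-29 family. Of its 6 members 2 passed as higher, miR-148a and miR-29a, and 0 as lower, beside 13.0% higher and 7.00% lower over all 100. The list is not complete, so its counts and median hold for these 6 alone. Their median change was 1.16 against 0.24 over all 100. Of the miRNAs described as favouring osteoclasts 5 of the 8 tested passed as higher and 0 as lower, beside the same 13.0% and 7.00%, with a median of 2.34 and a range of 0.90 to 4.47. These were miR-148a, miR-21, miR-214, miR-199a-3p and miR-29a, and 7 of the 8 were off the factor in both groups. Of those listed as restraining osteoclasts 0 of the 4 tested passed, with a median of 0.44. The 4 were miR-146a, miR-503, miR-340-5p and miR-26a, and a count of 0 among 4 is near what the same background gives. These lists were written with the results of earlier work on these data known, so their direction is no independent evidence. The lists are not complete, so the counts do not show that miRNAs favouring osteoclasts rose and those restraining them did not.

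miRNAs of other cells that a marrow sort can hold were counted beside the members, against the background of 13.0% higher and 7.00% lower. Among 5 mesenchymal miRNAs, which include miR-152, 3 passed as higher (miR-145, miR-199a-3p and miR-214) and 2 did not pass (miR-143 and miR-152), with a range of -0.76 to 3.44. Both miR-199a-3p and miR-214 are also in the list favouring osteoclasts, so the counts of these lists share wells. Of 3 erythroid, 3 lymphoid, 1 endothelial and 1 muscle miRNA 0 passed, with changes between -1.32 and 1.21, and all 8 were on the factor in both groups. A count of 0 among 8 is near what that background gives. Of the 6 tested myeloid miRNAs only miR-21 passed, as higher, and the median was 0.21. The same miR-21 is in the list favouring osteoclasts. The part of such cells in the change of miR-148a was not tested.

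**Figure D5:**
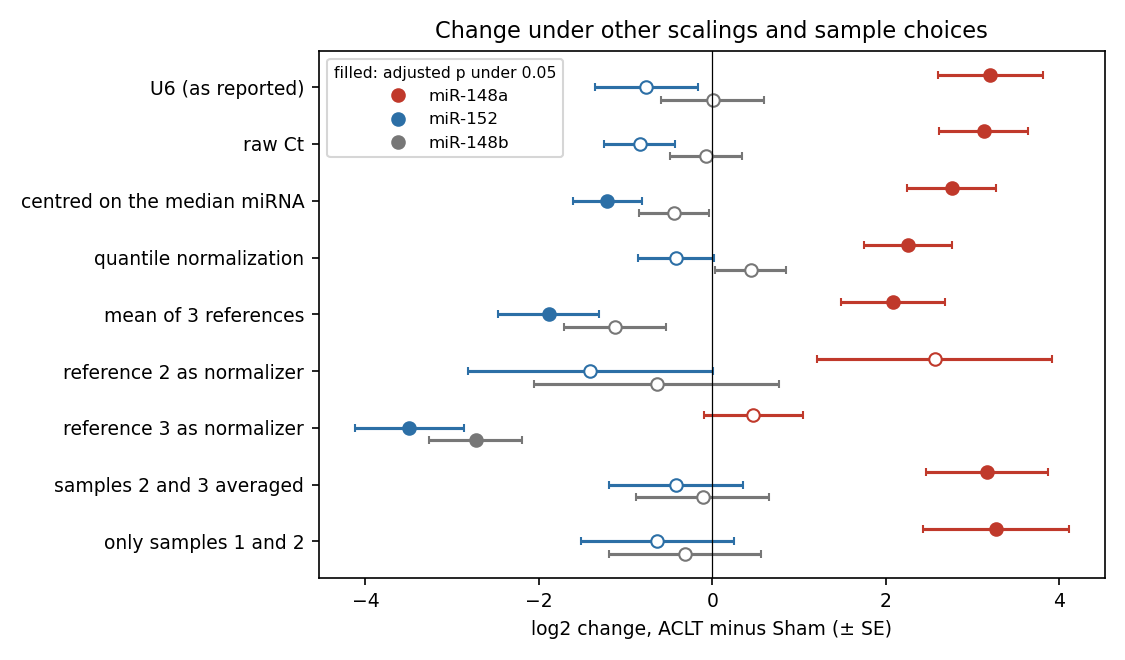
Log2 change (ACLT minus Sham, ± SE from limma) of the 3 family members under other normalizers and sample choices; filled points have a limma adjusted p under 0.05. miR-148a lies above the other 2 in every setting shown, whereas its distance from 0 depends on the reference, from 0.47 with reference 3 to 3.27 with only samples 1 and 2.

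The order of the family's changes held where the size did not. miR-148a had a higher change than miR-152 and miR-148b under each scaling and sample choice drawn in the plot of settings. Its difference from miR-152 is the same with U6, raw Ct, reference 2 or reference 3 by construction, and was 2.67 after quantile normalization, where the groups overlapped (exact permutation p = 0.2), and 3.26 to 5.11 with any 1 sample left out. With 3 samples a group, 1 of which was tied to another for miR-152, no exact test of this difference could pass the threshold of 0.05.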

How the data were processed

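Trizol-extracted RNA was copied with the QuantiMir kit, and cDNA was amplified for 40 cycles in SYBR Green assays on a ViiA7, per the labels' protocols. The authors deposited raw Ct per well, ΔCt on a log2 scale and a linear ratio of ACLT to Sham; U6 is named per the file headers, and each ΔCt equals the raw Ct minus the Ct of 1 reference well on the sample's plate (largest deviation 1.8e-15). The sources used here give no threshold or baseline settings. From the ΔCt values, 2 lines were not used here. For a well listed more than once, the line with values was used. Groups and replicate numbers came from the labels.

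The 100 miRNAs were fitted with limma 3.58.1 under R 4.3.3 (two-sided moderated test from lmFit and trended eBayes; Benjamini-Hochberg over all 100; threshold 0.05). This fit had 400 degrees of freedom in total, counting wells of a sample, tied samples included, as independent. Levels of the pairs were compared by exact permutation (scipy 1.17.1). The fits and the scan for factors, over 15 pairs of samples, were tested on simulated data. The data simulated for the fits had independent noise and no tied samples, so that test does not cover the tie found here. The members and lists were chosen with earlier results of these data known. miRNAs named are the family, the references, the 5 most alike in profile, the neighbours in size of change and the listed ones; likeness in raw Ct was added after the values were seen. Alternatives were other normalizers, Ct limits, variance models, a replicate block and other sample choices. The labels do not say if equal replicate numbers mark pairs, and they were not taken as pairs.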

Additional observations from a re-analysis of the deposited data

How the results depend on the processing

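The change of miR-148a kept its direction and its call in 18 of 20 alternatives (2.08 to 3.49); it was 2.56 with reference 2 and 0.47 with reference 3, where it did not pass, and between 2.99 and 3.49 with any 1 sample left out. The change of miR-152 kept its direction in all 20 and passed in 4: -3.50 with reference 3, -1.89 with the mean of 3 references, -1.21 when centred on the median miRNA, and without Sham sample 1, where the range with any 1 sample left out was -1.64 to -0.28. The pass without Sham sample 1 counts the tied Sham samples 2 and 3 as separate. miR-148b turned to -0.64 with reference 2, -2.73 with reference 3 (past the threshold), -1.12 with all references averaged, -0.072 on raw Ct, -0.44 when centred on the median, -0.11 once samples 2 and 3 were averaged, -0.31 if sample 3 was dropped from both groups, and between -0.34 and 0.18 with any 1 sample left out. The shift of miR-148a against miR-152 stayed between 2.67 and 5.11 in its 13 alternatives.

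The 13 miRNAs that passed as higher became 0 with reference 2 (at an unadjusted limma p of 0.05 there were 2), 1 with reference 3, 6 with all references averaged, 3 if sample 3 was dropped from both groups, and between 11 and 14 with any 1 sample left out. The 7 lower became 0, 87 and 34 with those references, 12 on raw Ct, 23 when centred on the median, 14 after quantile normalization, 0 once samples 2 and 3 were averaged, 0 if sample 3 was dropped from both groups, and between 0 and 16 with any 1 sample left out. The cause was not tested, except that fewer samples give fewer degrees of freedom.

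With the replicate number as a block, the changes of miR-148a (3.21) and miR-152 (-0.76) and their calls stayed, the shift between them (3.97) had an exact sign-flip p = 0.25, the smallest possible, and 13 higher and 1 lower miRNAs passed. Deviations of same-numbered samples correlated with r of 0.24, 0.056 and 0.066 over the 100 miRNAs. Those of differently numbered samples correlated with r between -0.22 and 0.22. The numbers were not taken as pairs, but such correlations cannot show that the samples were unpaired.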
